A study of Rattus norvegicus with 42 samples.

Results

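Ppargc1a encodes PGC-1alpha, a transcriptional coactivator, and is 1 gene of the 22929 in the RNA count table. It was selected because its RNA differed between a pulsatile and a constant corticosterone infusion in these same libraries, so its own RNA and pSer2 Pol2 values are given below as a description and carry no test. The gene was found by name among the 60999 rows of the pSer2 Pol2 table, where it has 2 rows with the same coordinates and the same values, which leaves 1 distinct region. Its Ensembl identifier, ENSRNOG00000004473, finds its row of counts. Of the 3981 merged glucocorticoid receptor (GR) regions, 0 lay inside the gene or were centred within 150 kb of its transcription start site (TSS).

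The samples were livers of adrenalectomised male Sprague Dawley rats, which make no adrenal corticosterone of their own. All had received dexamethasone after surgery and corticosterone in the drinking water until a washout before the experiment. In the pulsatile arm (PULS) corticosterone (CORT) was infused for 20 min of every hour over 3 hours, and in the constant arm (CONS) a matched dose ran without a break. The vehicle (VEH) was the carrier alone. RNA was taken at 180 min in 4 groups of 3 libraries, CORT_PULS, VEH_PULS, CORT_CONS and VEH_CONS, so each pattern had a vehicle of its own. GR and pSer2 Pol2 ChIP were taken at 140 and 180 min in 5 groups of 2 libraries each. These were PEAK_140 and NADIR_180, the top and the trough of the pulse, CONS_140 and CONS_180, and VEH, which is 1 library at each time after a pulsatile vehicle infusion and serves every ChIP comparison, CONS included. Each ChIP library pooled the livers of 6 rats.

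PGC-1alpha binds no DNA by itself. It is brought to promoters by nuclear receptors and other factors, among them HNF4a, FOXO1, PPARa and the glucocorticoid receptor, and recruits the machinery that opens chromatin and starts transcription. In liver it is known as a fasting-induced switch for gluconeogenesis, fatty acid oxidation and mitochondrial respiration. The gene itself is induced by glucagon through cyclic AMP and CREB, which acts at a cyclic AMP response element (CRE) in its promoter.

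In the rn6 assembly used for all the files, the pSer2 Pol2 region of Ppargc1a was chr14:63095720-63105720 on the plus strand, the first 10000 b of the gene. The promoter is shown because it carries that CRE and because no GR region was found near it. The sequence is from RefSeq for another assembly, GRCr8, chr14:63634058-63634307, plus strand, and holds the 250 b before the RefSeq start, 5′ to 3′, with the CRE in capitals.

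Ppargc1a promoter: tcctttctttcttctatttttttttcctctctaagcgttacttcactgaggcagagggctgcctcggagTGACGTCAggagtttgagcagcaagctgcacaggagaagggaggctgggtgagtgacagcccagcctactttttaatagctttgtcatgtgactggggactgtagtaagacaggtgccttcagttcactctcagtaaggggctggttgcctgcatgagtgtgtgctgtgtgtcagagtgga

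The CRE, TGACGTCA, is the same on both strands and began 181 b before the start. It was present in 1.59% of the 33469 RefSeq promoters of this length, searched on both strands. The core hexamer of the GR site, AGAACA, had 0 matches in these 250 b on either strand and occurred in 17.5% of all promoters. The FOXO letters GTAAACA had 0 matches, against 3.21% of promoters, and the nuclear receptor hexamer AGGTCA had 0 matches, against 14.1%. These are matches of letters in 1 window and not measured sites.

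At 180 min, Ppargc1a RNA was low in both vehicle groups, somewhat higher in CORT_PULS and several times higher in CORT_CONS. RNA levels are given as reads scaled to library depth by TMM (CPM), with the reads behind them. In VEH_PULS the 3 libraries held 98, 109 and 144 reads, or 17.8, 20.6 and 29.9 CPM. In CORT_PULS they held 304, 132 and 168 reads, or 58.5, 32.6 and 41.8 CPM. All 3 CORT_PULS libraries stood above all 3 VEH_PULS libraries, but the lowest of the former and the highest of the latter were close, at 32.6 and 29.9 CPM.

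In VEH_CONS the libraries held 196, 79 and 121 reads, or 23.9, 17.4 and 21.9 CPM. In CORT_CONS they held 801, 1054 and 976 reads, or 163, 148 and 175 CPM. Every CORT_CONS library was above every other library of the experiment, and the nearest, CORT_PULS replicate 1, reached 58.5 CPM.

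**Figure D1:**
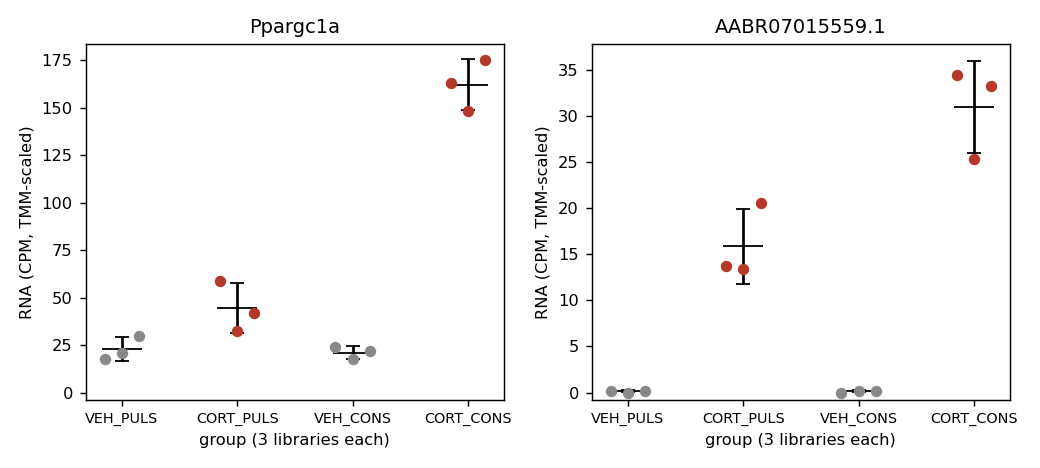
RNA in CPM for Ppargc1a (left) and for its downstream neighbour AABR07015559.1 (right) in the 4 RNA groups at 180 min, with 1 point for each of the 3 libraries of a group and a bar for the mean ± SD. Ppargc1a averaged 162 CPM in CORT_CONS and 44.3 CPM in CORT_PULS, while VEH_PULS averaged 22.8 CPM and VEH_CONS 21.1 CPM, and AABR07015559.1 was near 0 in both vehicle groups.

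As group means, Ppargc1a stood at 162 ± 13.5 CPM (SD, n = 3) in CORT_CONS, 44.3 ± 13.1 CPM (SD, n = 3) in CORT_PULS, 22.8 ± 6.33 CPM (SD, n = 3) in VEH_PULS and 21.1 ± 3.33 CPM (SD, n = 3) in VEH_CONS. Only the 2 vehicle groups, neighbours in that order, overlapped. The estimated log2 fold change over the matched vehicle was 0.98 ± 0.21 (SE) in PULS, which is 1.97-fold, and 2.93 ± 0.21 (SE) in CONS, which is 7.6-fold. The CONS change exceeded the PULS change by 1.95 ± 0.29 (SE) on the log2 scale. The vehicles differed by -0.09 ± 0.22 (SE), CONS minus PULS, so the distance between the patterns lay in the CORT libraries, where CORT_CONS over CORT_PULS was 1.86 ± 0.20 (SE) on the log2 scale.

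The PULS value leaned on single libraries more than the CONS value did. Without CORT_PULS replicate 1 it was 0.72, and without VEH_PULS replicate 3 it was 1.22, whereas the CONS value stayed between 2.82 and 3.03 when each of the 12 libraries was left out in turn. Among the 11642 genes with a mean of at least 1 CPM, Ppargc1a ranked 205 from the top for the PULS change, 32 for the CONS change and 22 for the difference between them. These ranks describe a gene chosen for this pattern.

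Total RNA libraries of whole liver do not separate more RNA per cell from more cells of a type. The hepatocyte marker list summed to between 136000 and 150000 CPM in 10 of the 12 libraries, to 111000 CPM in VEH_CONS replicate 1 and to 98600 CPM in VEH_CONS replicate 2. The CONS value of Ppargc1a was 3.03 without the former and 2.82 without the latter. Other tissues that express Ppargc1a strongly left little trace. The adipose list (Adipoq, Plin1, Ucp1 and Lep) summed to at most 0.515 CPM in any library, with Lep at 0 throughout, and the skeletal muscle list to at most 0.372 CPM, with Mb at 0 throughout. The Kupffer cell list ranged from 221 to 394 CPM, the endothelial list from 233 to 328 CPM, the stellate or fibroblast list from 16.7 to 39.6 CPM and the cholangiocyte list, with Krt19 at 0, from 8.1 to 14.2 CPM. In each of these 4 lists the CORT_CONS libraries lay within the range of the other 3 groups. Depth ran from 3956379 to 7777219 reads for RNA, from 2051977 to 6715803 tags for GR and from 4938473 to 9326927 tags for pSer2 Pol2.

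Elongating polymerase, marked by phosphorylation of serine 2 of its tail (pSer2 Pol2), was measured over the first 10000 b of Ppargc1a. The deposited log2 values, taken after input subtraction, lay within 0.01 of the lowest of them in 6 of the 10 libraries. In VEH they were 3.10 and 3.10, and in NADIR_180 also 3.10 and 3.10. In PEAK_140 they were 3.53 and 3.52, the only group in which both libraries stood above that level.

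In CONS_140 the values were 3.86 and 3.10, and in CONS_180 3.27 and 3.10. The highest value of all therefore belonged to a library whose replicate sat at the lowest level, although their depths were alike, 9326927 and 8923921 tags. Replicate 1 was also the higher one in CONS_180, with 7780125 tags against 4938473. As log2 differences from VEH, PEAK_140 was at 0.43, CONS_140 at 0.38, CONS_180 at 0.08 and NADIR_180 at 0.00, each with an SE of 0.28. The level of 3.10, shared by VEH, NADIR_180 and replicate 2 of both CONS groups, may be a floor of the deposited values. A difference of 0.00 then says little about polymerase at the gene. Without CONS_140 replicate 1, the CONS_140 difference was -0.001. That library also read highest at each neighbouring gene with tags within 1000 kb, so its excess was not limited to Ppargc1a. CONS_140 replicates 1 and 2 read 0.075 and -0.654 at AABR07015559.1 and -0.124 and -0.826 at Gnpda2. At Guf1 they read 3.654 and 2.855, and at AABR07015547.1 -1.041 and -1.527. The reason was not tested. Centring on library medians moved the Ppargc1a difference from VEH to 0.234 in CONS_140 and to 0.515 in PEAK_140. The order of the groups at 140 min is thus not resolved by these libraries, and the region, which covers only the start of the gene, had a mean above 58.6% of the 38315 regions with tags.

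**Figure D2:**
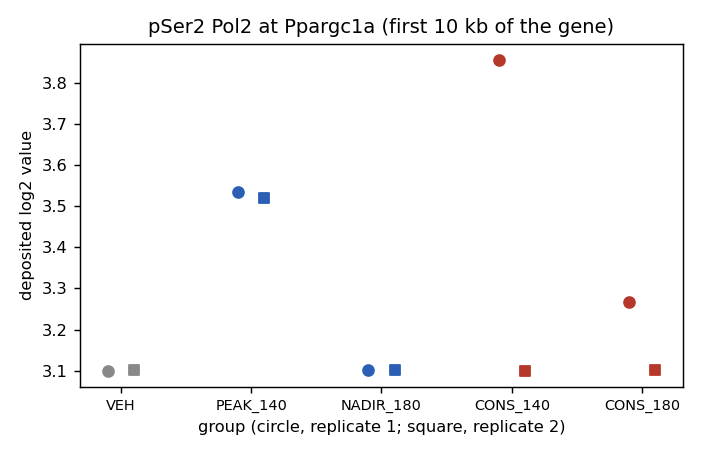
Deposited log2 pSer2 Pol2 value over the first 10000 b of Ppargc1a in the 10 ChIP libraries, by group, with replicate 1 as a circle and replicate 2 as a square. The axis starts above 0, and 6 libraries sit at 3.10, while both PEAK_140 libraries and replicate 1 of each CONS group are higher.

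No GR region met the distance rule, also when the peak list of each group was read by itself. The lists held 3210 peaks in PEAK_140, 1723 in CONS_140, 2428 in CONS_180, 73 in NADIR_180 and 118 in VEH, with 0 within 150 kb of the Ppargc1a TSS in every one. By the same window, 35.5% of the 26426 genes of the region table had a GR region. Among genes that rose in RNA, 38 of 250 (15.2%) in PULS and 144 of 626 (23%) in CONS had none either.

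On the upstream side the nearest region was 2755.5 kb away in rn6. That distance rests on the rn6 order, which differs upstream of Ppargc1a in GRCr8, as given below for the neighbouring genes. On the downstream side 2 regions lay between Ppargc1a and 500 kb, both annotated as intergenic and both assigned by the files to another gene, AABR07015559.1. They are described because they are the nearest, and a 500 kb window was chosen after the 150 kb window had been found empty.

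**Figure D3:**
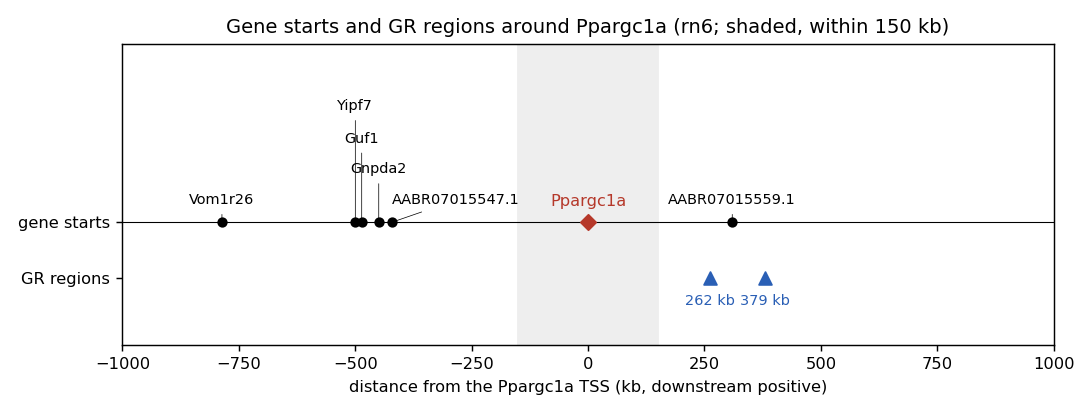
Positions of annotated gene starts (circles) and merged GR regions (triangles) relative to the Ppargc1a TSS (diamond) in kb, with downstream positive and the 150 kb window shaded. The window holds no GR region, and the nearest lie 262 kb and 379 kb downstream, on either side of the start of AABR07015559.1.

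The nearer region, chr14:63357109-63357743 in rn6, was centred 261.7 kb downstream of the Ppargc1a TSS and was in the peak lists of PEAK_140, CONS_140 and CONS_180. Its deposited log2 values were -0.66 and -0.85 in VEH and 5.44 and 5.29 in PEAK_140. They were 0.75 and -0.42 in NADIR_180. GR occupancy here was thus high at the pulse peak, while at the trough replicate 2 was near vehicle and replicate 1 lay above both vehicle libraries.

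Under the constant infusion the same region read 4.94 and 5.22 in CONS_140 and 5.23 and 4.37 in CONS_180, high at both times. The region is among those analysed because it was a peak of PEAK_140, CONS_140 and CONS_180. Its p-values for these groups over VEH or NADIR_180, and for the fall, are therefore descriptive. By limma with Benjamini-Hochberg adjustment over all 3981 regions, the log2 difference from VEH was 6.12 ± 0.62 (SE) in PEAK_140 (adjusted p = 6.14e-05), 5.83 ± 0.62 in CONS_140 (adjusted p = 0.000109) and 5.55 ± 0.62 in CONS_180 (adjusted p = 0.000156). In NADIR_180 it was 0.92 ± 0.62 (adjusted p = 0.487). PEAK_140 was above NADIR_180 by 5.201 (adjusted p = 0.00038), and CONS_180 was above NADIR_180 by 4.64 (adjusted p = 0.0012). The fall from 140 to 180 min was larger in PULS than in CONS by 4.92 ± 0.87 (adjusted p = 0.00626 by limma), while PEAK_140 and CONS_140 differed by 0.28 ± 0.62 (adjusted p = 0.832).

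These directions are common among the regions, which were themselves collected as GR peaks of these libraries. As this region entered through the 3 groups that are high in it, the p-values above are not independent evidence that those groups stand above VEH and NADIR_180. The same holds for the larger fall in PULS. The share of regions called higher was 78.6% for PEAK_140 over VEH, 64.7% for CONS_140, 67.9% for CONS_180 and 7.44% for NADIR_180. It was 68.8% for PEAK_140 over NADIR_180, 49.6% for CONS_180 over NADIR_180, 43.6% for the larger fall in PULS and 0.0251% for PEAK_140 over CONS_140. The median region rose by 4.17 on the log2 scale in PEAK_140, by 3.38 in CONS_140 and by 3.46 in CONS_180. After median centring of the libraries, which removes that common rise, the region stood 1.502 above VEH in PEAK_140 (adjusted p = 0.162 by limma, against 1.94e-05 to 0.162 over all its alternatives), and none of its other calls passed either. The adjusted p by limma was then 0.0954 for CONS_140 and 0.162 for CONS_180 over VEH, 0.133 for PEAK_140 and 0.188 for CONS_180 over NADIR_180, and 0.472 for the larger fall in PULS.

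The farther region, chr14:63474508-63474903, was centred 379 kb downstream and was in the PEAK_140 list only. Its values were -0.75 and 1.13 in VEH, 4.49 and 3.46 in PEAK_140 and -0.69 and 0.90 in NADIR_180. They were 3.66 and 3.31 in CONS_140 and 3.06 and 2.05 in CONS_180. As at the nearer region, the 3 groups PEAK_140, CONS_140 and CONS_180 lay above VEH and NADIR_180. The median region also rose over VEH in these 3 groups, by 4.17, 3.38 and 3.46 on the log2 scale.

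The region entered the table through PEAK_140 alone, so its PEAK_140 differences are a description, with no test. They were 3.79 ± 0.89 (SE) over VEH and 3.87 ± 0.89 over NADIR_180 on the log2 scale. The log2 difference from VEH by limma was 3.29 ± 0.89 in CONS_140 (adjusted p = 0.0101) and 2.36 ± 0.89 in CONS_180 (adjusted p = 0.0398), and after median centring of the libraries the 3 differences from VEH became -0.83, -0.82 and -1.70, and that of PEAK_140 from NADIR_180 became 0.44. CONS_180 was above NADIR_180 by 2.45 ± 0.89 (adjusted p = 0.0464), which turned to -0.43 after that centring. The falls in PULS and CONS differed by 2.94 ± 1.25. The CONS_140 call was lost without VEH replicate 1 (2.35, adjusted p = 0.0788), and the 2 CONS_180 calls without any of several libraries and with only the groups compared in the fit (adjusted p = 0.0681 and 0.0706 by limma). At each of these times the region stayed below the rise of the median region.

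**Figure D4:**
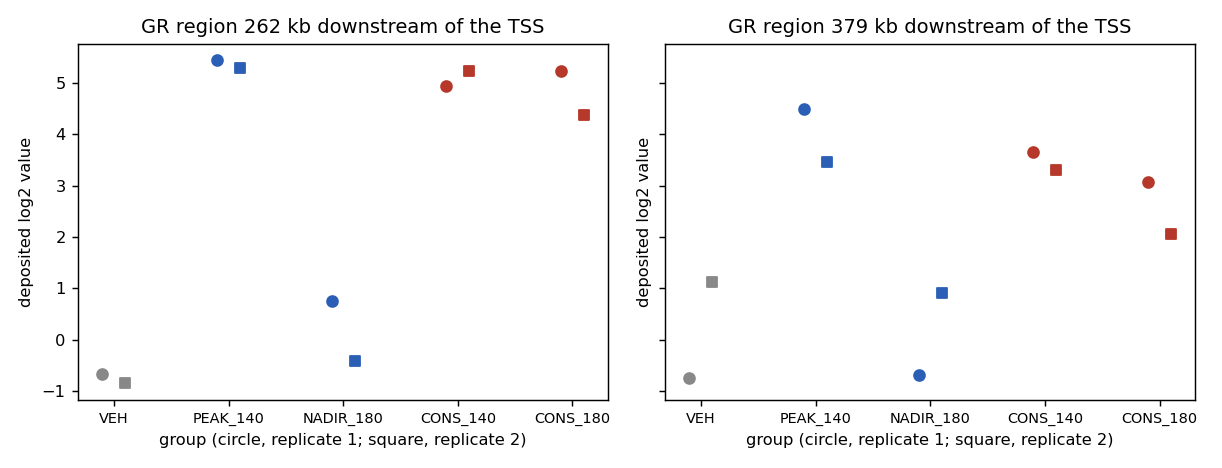
Deposited log2 GR value at the 2 GR regions nearest to Ppargc1a, 262 kb (left) and 379 kb (right) downstream of its TSS, in the 10 ChIP libraries, with replicate 1 as a circle and replicate 2 as a square. At the nearer region VEH and NADIR_180 lie at or below 0.75 and the other 3 groups at or above 4.37.

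In the rn6 order, Ppargc1a has few neighbours. Within 1000 kb of its TSS the rn6 region table places 6 other genes. Upstream are Vom1r26, a vomeronasal receptor gene with no row in the counts used here, Yipf7, Guf1, Gnpda2 and the lincRNA AABR07015547.1. Downstream is AABR07015559.1 (ENSRNOG00000055015), annotated as protein coding with no further description in the files.

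AABR07015559.1, whose start lies 309.7 kb downstream of the Ppargc1a TSS, was almost silent in vehicle and strongly induced under both patterns. It held 1, 0 and 1 reads in VEH_PULS and 71, 54 and 83 in CORT_PULS. It held 0, 1 and 1 reads in VEH_CONS and 170, 180 and 186 in CORT_CONS. Per read of depth, summed over the 3 libraries of a group, CORT_PULS was 119-fold over VEH_PULS (exact 95% interval 32.5 to 988, for counting error only) and CORT_CONS was 281-fold over VEH_CONS (77.3 to 2320).

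Both increases passed edgeR's quasi-likelihood test over all 14092 genes, with adjusted p = 8.3e-07 in PULS and adjusted p = 1.22e-08 in CONS. CORT_CONS averaged 31 ± 5 CPM (SD, n = 3) and CORT_PULS 15.9 ± 4.07 CPM (SD, n = 3). The CONS change minus the PULS change was 1.15 ± 1.42 on the log2 scale (adjusted p = 0.795 by edgeR), an interval wide enough to hold a difference in either direction, since the vehicle libraries had so few reads. Its pSer2 Pol2 values gave no call, with adjusted p by limma of 0.536 or above over the 4 comparisons with VEH. They lay at a floor, between -0.654 and -0.642, in every library but CONS_140 replicate 1 (0.075). The lack of a call therefore says little about polymerase at this gene. Of the 2 GR regions above, the nearer was centred upstream of the start of this gene and the farther downstream of it.

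The other neighbours did not pass in either pattern. Guf1, a mitochondrial translation factor gene, had a PULS log2 fold change of 0.42 ± 0.12 (adjusted p = 0.0565 by edgeR) and a CONS value of -0.08 ± 0.12. Gnpda2, a glucosamine phosphate deaminase gene, was at -0.44 ± 0.21 in PULS and 0.16 ± 0.19 in CONS. AABR07015547.1, the nearest annotated start upstream, 421.3 kb away, was at 0 reads in all 12 libraries, and Yipf7 never exceeded 5 reads. So 1 of the 4 neighbours with enough reads was called, in both patterns, against 1.79% of all genes called higher in PULS and 4.45% in CONS. The upstream neighbourhood depends on the assembly. In the RefSeq gene order of GRCr8, Dhx15 directly precedes Ppargc1a among protein-coding genes and Gba3 directly follows it, while Guf1, Gnpda2 and Yipf7 lie at least 70 protein-coding genes away.

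The genes that act with PGC-1alpha were grouped by role into 7 lists, and 109 of the 120 listed genes besides Ppargc1a had enough reads to be tested. The lists were chosen with earlier results of these data known. Their counts here and below, beside the shares of all genes, are therefore a description and no test of enrichment. In PULS 13 rose and 3 fell, with a median log2 fold change of 0.14, against a median of -0.01 and 1.79% higher and 2.44% lower over all 14092 genes. In CONS 17 rose and 8 fell, with a median of 0.03, against -0.01 and 4.45% higher and 4.75% lower over all genes. The PULS count rested in part on 1 library, since without CORT_PULS replicate 1 it was 8. The difference between CONS and PULS passed for 0 of the 109 by edgeR, where 29 had an unadjusted p under 0.05, and for 11 by DESeq2. Over all genes edgeR called 0.0071% with a higher log2 change in CONS than in PULS and 0.0213% with a lower one. The former share is Ppargc1a itself, which was chosen on this contrast, so its call is a description and no test. The total depended on the method, with 4 genes in this fit and 229 by DESeq2.

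**Figure D5:**
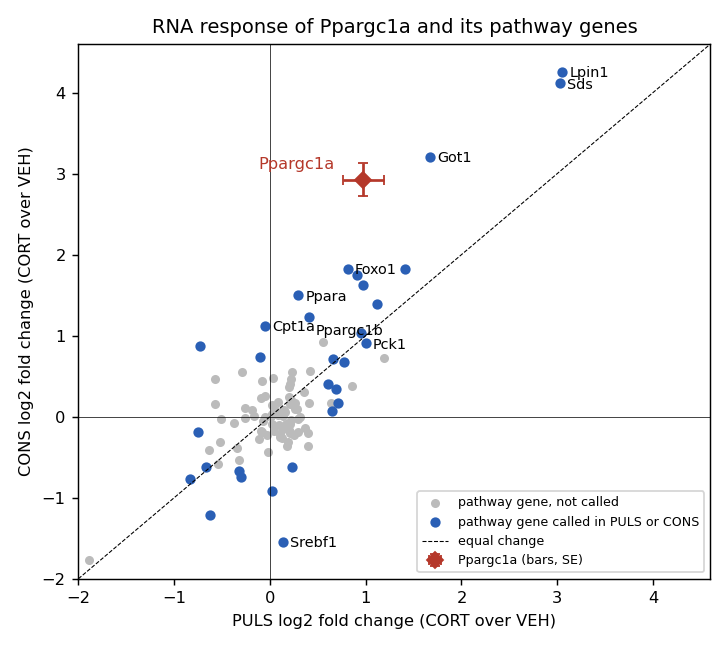
RNA log2 fold change of CORT over VEH in CONS (vertical) against PULS (horizontal) for the 109 tested genes of the 7 lists, each a point, and for Ppargc1a (diamond, with bars for the SE), with the line of equal change dashed. Ppargc1a lies above the line at 0.98 and 2.93, Lpin1 and Sds are farther out in both patterns, and most genes of the lists sit near the origin.

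Of the 2 close relatives of Ppargc1a, 1 rose, in CONS, where 4.45% of all genes did. Ppargc1b, which encodes the coactivator PGC-1beta, averaged 39.3 CPM in VEH_CONS and 92.6 CPM in CORT_CONS, a rise of 1.23 ± 0.19 on the log2 scale (adjusted p = 0.000477 by edgeR). Its PULS value was 0.40 ± 0.20 (adjusted p = 0.28), and the difference between the patterns, 0.82 ± 0.28, did not pass (adjusted p = 0.219 by edgeR). Pprc1, the third member of the family, was at 0.92 in CONS (adjusted p = 0.0558) and 0.55 in PULS (adjusted p = 0.333). Unlike Ppargc1a, both had a GR region within 150 kb of a TSS, as did 35.5% of all genes of the region table.

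Among 21 tested regulators of the Ppargc1a promoter or of the PGC-1alpha protein, 2 rose and 2 fell in PULS, and 2 rose and 3 fell in CONS. Over all genes 1.79% rose and 2.44% fell in PULS, and 4.45% rose and 4.75% fell in CONS. No tested gene of the arm that leads from glucagon to CREB was called higher. Gcgr, the glucagon receptor, fell in CONS by 0.74 on the log2 scale (adjusted p = 0.000342 by edgeR), from 110 to 65.7 CPM, and Prkaca, a catalytic subunit of protein kinase A, fell by 0.62 (adjusted p = 0.00377). Pde4d, a phosphodiesterase that degrades cyclic AMP, fell by 0.67 in PULS and by 0.62 in CONS.

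Creb1 stood at 0.01 in both patterns, and Crtc2, its coactivator, at 0.14 in PULS and 0.08 in CONS. Of the catalytic subunits of AMP-activated kinase, Prkaa1 rose by 0.69 in PULS (adjusted p = 0.0127 by edgeR) and was at 0.34 in CONS, and Prkaa2 rose by 0.74 in CONS (adjusted p = 0.0255) and was at -0.10 in PULS. Neither difference between the patterns passed (adjusted p = 0.521 and 0.227 by edgeR). Kat2a, the acetyltransferase GCN5 that inhibits PGC-1alpha, rose by 0.71 in PULS and was at 0.18 in CONS. Nr1d1, the clock repressor REV-ERBalpha, rose by 0.88 in CONS (adjusted p = 0.0443) and was at -0.73 in PULS (adjusted p = 0.212). Crtc3, a relative of Crtc2, fell by 0.76 in PULS and was at -0.19 in CONS.

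Of 20 tested transcription factors that PGC-1alpha coactivates, 2 rose in PULS, and 4 rose and 1 fell in CONS. The shares over all genes were 1.79% higher in PULS, and 4.45% higher and 4.75% lower in CONS. Foxo1, which drives gluconeogenic genes, rose by 0.81 in PULS (adjusted p = 0.0146 by edgeR) and by 1.82 in CONS (adjusted p = 6.5e-06), reaching 415 CPM in CORT_CONS from 117 CPM in VEH_CONS. Ppara, the receptor that drives fatty acid oxidation, rose by 1.5 in CONS (adjusted p = 0.00197) and was at 0.30 in PULS (adjusted p = 0.624). The xenobiotic receptor Nr1i2 (PXR) rose in both, by 0.97 and 1.63, and Nr1i3 (CAR) rose by 1.03 in CONS.

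Srebf1, which drives lipid synthesis, fell by 1.54 in CONS (adjusted p = 0.00148 by edgeR), from 227 to 77.8 CPM. For Foxo1 the difference between the patterns was 1.01 ± 0.25 (adjusted p = 0.105), for Ppara 1.20 ± 0.40 (adjusted p = 0.212) and for Srebf1 -1.68 ± 0.39 (adjusted p = 0.0887), so none passed by edgeR. Hnf4a was at -0.04 in PULS and -0.23 in CONS, Esrra at 0.36 and 0.30, and Nrf1 at -0.07 and -0.05.

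In the cofactor list, Lpin1, which encodes lipin 1, a phosphatidate phosphatase that also works with PGC-1alpha and PPARa as a coactivator, rose by 3.05 ± 0.25 in PULS (adjusted p = 4.05e-06 by edgeR) and by 4.26 ± 0.26 in CONS (adjusted p = 4.56e-08). It averaged 92.2 CPM in VEH_PULS, 765 CPM in CORT_PULS and 1660 CPM in CORT_CONS. Nrip1, the corepressor RIP140, fell in both patterns, by 0.84 and 0.77, and Mybbp1a, a repressor of PGC-1alpha, rose in both, by 0.77 and 0.68. Nr0b2, the corepressor SHP, rose by 1.39 in CONS (adjusted p = 0.0369). In all, 2 of 12 rose and 1 fell in PULS, against 1.79% and 2.44% of all genes. In CONS 3 rose and 1 fell, against 4.45% and 4.75%.

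In the gluconeogenesis list 5 of 12 genes rose in PULS, against 1.79% of all genes. In CONS 5 of 12 rose and 1 fell, against 4.45% and 4.75%. The amino acid enzymes led. Sds, serine dehydratase, rose by 3.02 in PULS and 4.11 in CONS, and Got1, the cytosolic aspartate aminotransferase, by 1.67 and 3.21, with a difference between patterns of 1.54 ± 0.28 that missed the threshold (adjusted p = 0.058 by edgeR). Tat, tyrosine aminotransferase, rose by 1.41 and 1.82.

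Pck1, the cytosolic PEPCK that commits carbon to glucose and a classic target of PGC-1alpha, rose in both patterns, by 1.00 ± 0.17 in PULS (adjusted p = 0.00305 by edgeR) and 0.91 ± 0.17 in CONS (adjusted p = 0.00208). The difference, CONS minus PULS, was -0.09 ± 0.24 (adjusted p = 0.918). Slc37a4, the glucose 6-phosphate transporter, rose by 0.60 in PULS, and Slc25a25 rose by 1.75 in CONS. Gpd1, glycerol 3-phosphate dehydrogenase, fell by 0.92 in CONS. G6pc, the catalytic subunit of glucose 6-phosphatase, is listed at 0 reads in all 12 libraries and was not tested. All 13 genes of the list, G6pc included, had a pSer2 Pol2 region with tags. The 0 reads are therefore not taken as a lack of expression, and their reason was not tested. All 13 genes of this list had a GR region within 150 kb of a TSS, as did 76 of the 115 genes of the 7 lists (66.1%) present in the region table. The share was 35.5% over all 26426 genes of that table, which include genes with too few reads to test.

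Of 20 fatty acid oxidation and ketogenesis genes, 1 rose in PULS, where 1.79% of all genes were called higher and 2.44% lower. In CONS 2 rose and 2 fell, where 4.45% of all genes were called higher and 4.75% lower. The list medians were 0.11 and -0.01. Cpt1a, the enzyme that admits fatty acids to mitochondria, rose by 1.12 in CONS (adjusted p = 0.000893 by edgeR) and was at -0.05 in PULS, with a difference of 1.17 ± 0.27 that did not pass (adjusted p = 0.0887). Cpt2 rose in both, by 0.65 and 0.71.

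Pdk4, a kinase that shuts pyruvate dehydrogenase and is usually counted among PGC-1alpha targets, fell by 1.22 in CONS (adjusted p = 0.00542 by edgeR) and was at -0.63 in PULS. Bdh1, a ketone body enzyme, fell by 0.67 in CONS. Of 22 tested genes of mitochondrial biogenesis and respiration, Idh3a alone was called, up by 0.65 in PULS (adjusted p = 0.0394 by edgeR). In CONS 0 were called by edgeR or by DESeq2 (3 and 2 at an unadjusted p under 0.05). By edgeR, 1.79% of all genes were called higher in PULS, and 4.45% higher and 4.75% lower in CONS. Tfam, which packages and transcribes mitochondrial DNA, was at 0.09 and 0.02, Cycs (cytochrome c) at 0.17 and -0.09, and Alas1 (haem synthesis) at 0.86 in PULS (adjusted p = 0.116) and 0.38 in CONS.

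In pSer2 Pol2, 109 list genes had a region with tags. At PEAK_140, 3 had a region that rose (Got1, Lpin1 and Sds) and 3 a region that fell (Bdh1, Hadh and Pdk4), against 0.382% of all 16500 genes higher and 0.636% lower. At CONS_140, 8 had a region that rose (Cebpb, Foxo1, Got1, Lpin1, Nr0b2, Nr1i2, Nr1i3 and Sds) and Pdk4 one that fell, against 0.648% and 0.176%. At CONS_180, Lpin1 and Sds were called higher, against 0.182% and 0.0545% lower, and at NADIR_180 no list gene was called by limma (9 had a region at an unadjusted p under 0.05), against 0% higher and 0.00606% lower. With the replicate number of the CORT libraries as a block, all these calls were kept, and Gpd1 (lower at PEAK_140), Slc37a4 (higher at CONS_140), Got1 (higher at CONS_180) and Pdk4 (lower at CONS_180) were added. At CONS_180 the block thus gave 3 list genes higher and 1 lower, against 0.236% and 0.145% of all genes, and at NADIR_180 again 0.

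The Lpin1 region stood 4.40 above VEH in PEAK_140, 4.40 in CONS_140 and 4.43 in CONS_180 on the log2 scale. Foxo1 was 2.57 ± 0.40 above VEH in CONS_140 (adjusted p = 0.0126 by limma). All of these comparisons share the 2 VEH libraries.

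The genes whose RNA followed Ppargc1a most closely over the 12 libraries were found by Pearson's r of log2 CPM among 11641 genes with a mean of at least 1 CPM. They were Proser2 (r = 0.98), Mrps31, a mitochondrial ribosomal protein gene (r = 0.979), Lrrc8a, a subunit of the volume-regulated anion channel (r = 0.977), AC110488.1 (r = 0.972) and Tmem150c (r = 0.964). The points share the 4 groups, so r here mostly restates the order of the group means. Their CONS log2 fold changes by edgeR, 1.23 to 2.57, are a description with no test, since the genes were picked by their levels in these libraries.

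Lrrc8a, for example, lay between 25.1 and 25.2 CPM in CORT_CONS, between 12.1 and 15.7 CPM in CORT_PULS and between 9.6 and 14.3 CPM in VEH_PULS. AABR07015559.1, the downstream neighbour, had r = 0.861 and ranked 248 of 11641. In pSer2 Pol2, over the 10 libraries and 8113 genes, the closest were Alpl (r = 0.991), Fabp5 (r = 0.899), Map3k5 (r = 0.887), LOC103690028 (r = 0.874) and Hivep1 (r = 0.871), where 6 of the 10 points of Ppargc1a lie at its lowest level.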

How the data were processed

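Ppargc1a, its gene lists and its comparisons were chosen with earlier results of these data known. RNA values are whole read counts per Ensembl gene deposited by the authors from total RNA libraries (STAR and featureCounts 1.6.2 in the submitters' processing notes, rn6), over exons of the Ensembl annotation, from a stranded kit; the strand setting of the counting is not given in the sources used here. ChIP values are log2 values per region deposited by the authors after input subtraction (Trimmomatic 0.36 and HOMER 4.9.1), drawn together where tags are few. The deposited peak lists hold coordinates only, merged over replicates. The authors' own fold changes and p-values in these tables were not used.

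Counts were tested with edgeR 4.0.16 (quasi-likelihood, TMM, genes with over 10 reads in all, 14092 of 22929), and 22747 of the 22929 genes were named through the region table. There was 1 fit of the 12 libraries. ChIP values were tested with limma 3.58.1 (trend) in 1 fit of 10 libraries over 3981 GR regions or 38315 pSer2 Pol2 regions with tags. A call needed a Benjamini-Hochberg adjusted p under 0.05 and over 1.5-fold. The SE of a count fold change was taken from the quasi-likelihood F. Replicates are separate libraries, and nothing says more of their independence for RNA, so p-values measure the spread between these libraries. The fits were tested on simulated data with 200 changed genes.

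Genes named are Ppargc1a, its regions and neighbours, the list genes called (at most 6 per list by CONS change), a fixed set of list genes and the 5 closest in pattern. One gene of the fixed set is not reported here. Crtc3 and Slc37a4 were added, and the 500 kb GR window, the region at 379 kb and the pSer2 Pol2 genes of the lists were chosen after the values were seen. Of 121 listed pathway genes, 8 are not analysed here for RNA. Same-numbered pSer2 Pol2 libraries of the CORT groups deviated together (correlation of deviations 0.155 to 0.553, 6 distinct values, since the deviations of 2 replicates mirror each other), while those of GR (-0.0265 to 0.0718) and RNA (-0.0488 to 0.081) did not. Alternatives covered size factors, DESeq2 1.42.0, filters, scaling, trend, the replicate block, the libraries fitted and each library left out.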

Additional observations from a re-analysis of the deposited data

Results flagged for a closer look

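At the GR region 261.7 kb downstream of the Ppargc1a TSS, the fall in GR occupancy from 140 to 180 min differed between the patterns: it was larger in PULS than in CONS by 4.92 on the log2 scale (adjusted p = 0.00626 by limma over 3981 regions). The values were 5.44 and 5.29 in PEAK_140, 0.75 and -0.42 in NADIR_180, 4.94 and 5.22 in CONS_140, and 5.23 and 4.37 in CONS_180. The region entered the table as a peak of PEAK_140, CONS_140 and CONS_180 and not of NADIR_180, so the p is not independent evidence. The median region showed the same direction with 3.11, and over the alternatives the region ranged from 1.53 to 5.51, with adjusted p from 0.0014 to 0.472. Groups of 2 or 3 libraries were too small for a search for single outlying libraries.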

How the results depend on the processing

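Over every alternative run, the Ppargc1a RNA log2 fold change stayed between 0.72 and 1.22 in PULS, between 2.82 and 3.03 in CONS, and their difference between 1.71 and 2.21. With the replicate block the 3 values were 0.96, 2.94 and 1.98. No replicate block changed the number of neighbour genes called or moved a pathway count by over 1.5 times. RNA and GR libraries share only a number. For pSer2 Pol2, where same-numbered libraries deviate together, the block kept every list gene call. The Ppargc1a differences could not change with that block, which is balanced within each CORT group and acts on the spread alone. When each library was left out in turn, the pathway genes called numbered 8 to 17 in PULS (8 without CORT_PULS replicate 1, 16 with all) and 20 to 26 in CONS, and the CONS_140 pSer2 Pol2 difference ran from -0.001 without CONS_140 replicate 1 to 0.757 without replicate 2. The pathway genes called for the difference between patterns numbered 0 in the reported fit, 11 with DESeq2, 10 with genes of at least 1 read, and 0 to 9 without single libraries (9 without VEH_CONS replicate 1, 2 without CORT_CONS replicate 2, 2 without VEH_PULS replicate 3 and 1 without CORT_PULS replicate 1); over all genes it went from 4 to 229, 204 and, without VEH_CONS replicate 1, 288. The cause was not tested.

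No GR region lay within 150 kb, so the alternatives planned for that count gave no value. With the 500 kb window it became 2 for PEAK_140, CONS_140 and CONS_180 over VEH, 2 for PEAK_140 and 2 for CONS_180 over NADIR_180, and 1 for the larger fall in PULS. At the nearer region, calls over VEH were lost only with each library centred on its median (1.502, 1.72 and 1.49), and calls over NADIR_180 and of the falls also with quantile normalization. At the farther region that centring gave -0.83, -0.817 and -1.70 for PEAK_140, CONS_140 and CONS_180 over VEH and -0.433 for CONS_180 over NADIR_180, and quantile normalization gave -0.596, -0.633, -1.32 and -0.632. Both its CONS_180 calls were lost with only the groups compared (adjusted p = 0.0681 and 0.0706). Its CONS_180 call over VEH was also lost without VEH replicate 1 or either replicate of PEAK_140 or CONS_180 (1.42 to 3.30 over all libraries left out), and its CONS_180 call over NADIR_180 with the replicate block (adjusted p = 0.0519) and without NADIR_180 replicate 1 or either replicate of PEAK_140, CONS_140 or CONS_180 (1.65 to 3.25). Both scalings remove the rise shared by most regions.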
